A study of Arabidopsis thaliana with 18 samples.

Results

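The ABA response of Arabidopsis thaliana seedlings carrying the ros1-3 allele was measured as the change of every gene's messenger RNA between hormone-treated and mock-treated plants. The comparison used 6 of the 18 libraries of the series: the 3 of ros1-3 seedlings kept for 6 h in water with 50 µM abscisic acid (ABA) and the 3 of ros1-3 seedlings kept for 6 h in water with the solvent alone, called mock here. All plants were 12 d old, whole seedlings were taken, and each library came from a pool of 5 plants. Both groups carry this allele of ROS1, a gene for an enzyme that cuts methylated cytosine out of DNA, so the comparison shows the hormone's effect within that genotype and not the effect of the allele. The labels do not say what kind of allele ros1-3 is, nor whether the pools were grown and treated separately, and the p-values measure only the spread between these pools. The other libraries, wild type and the ros1-4 allele under the same mock and ABA treatments with 3 libraries each, entered the same fit, where they help to set the spread behind each test, and serve to test where the ros1-3 response differed. With the 6 ros1-3 libraries alone 5941 loci were called in place of the 6052 given below.

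ABA is the hormone that plants make when water is short and when seeds mature. PYR/PYL receptors that have bound ABA block clade A PP2C phosphatases, which frees SnRK2 kinases to phosphorylate ion channels and the ABF/AREB family of bZIP transcription factors. These factors bind ABA-responsive elements, short promoter sequences with the core letters ACGTG, and switch on genes for protective proteins such as dehydrins, while guard cells close and growth slows. The study's design sets 2 alleles of ROS1 beside wild type, each with ABA and mock.

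Reads were counted per gene, and a gene's level is given in CPM, its share of the counted reads scaled to the same total in every library after TMM normalisation. The 6 libraries held 3304038 to 4647380 counted reads. On the first principal component, which held 76.9% of their variance, the 3 mock libraries lay between -55.68 and -52.23 and the 3 ABA libraries between 51.93 and 57.20, and no library stood apart from its group. Multiply aligned reads made 6.53% to 9.45% of a file in mock and 5.60% to 7.48% in ABA, ranges that overlapped. Leaf antenna genes and root genes were both read, as the label of whole seedlings implies: CAB1, an antenna protein of photosystem II, had at least 22110 CPM in every library, and PHT1;1, a root phosphate transporter, at least 5.85 CPM.

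ROS1 (AT2G36490, annotated under the name DML1, chr2:15307907-15314807 in TAIR10.1, minus strand) was still read in the mutant, and its level did not move detectably with ABA. It had 51.2, 53.4 and 57.7 CPM in mock and 47.3, 56.0 and 58.3 CPM in ABA. The groups overlapped (log2 -0.002, SE 0.12, edgeR adjusted p = 0.993). Where along the gene these reads lie cannot be read from the count table, and the effect of the allele on the protein was not measured here. In wild type the gene had 94.6, 82.6 and 86.1 CPM in mock and 96.5, 108 and 120.3 CPM in ABA, above all 6 ros1-3 libraries, and it was called higher with ABA (log2 0.30, edgeR adjusted p = 0.0257). The difference between the ros1-3 and wild type responses of ROS1 (log2 -0.305, unadjusted p = 0.0683, edgeR adjusted p = 0.994) did not pass.

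The sequences before 5 genes of the pathway are shown here because the ABA-responsive element is the promoter feature through which ABF factors are known to act, and because these genes stand at both ends of the response described below. Each is the 250 bases that precede the annotated gene start, read 5′ to 3′ on the gene's strand from the RefSeq genome TAIR10.1. Capitals mark every ACGTG on either strand (CACGT is its reverse complement, and CACGTG counts as 2 overlapping sites). The windows are chr5:21236771-21237020 on the plus strand for RD29B, chr5:2090431-2090680 on the minus strand for LEA4-5, chr1:2282829-2283078 on the minus strand for HAI2, chr5:21240467-21240716 on the plus strand for RD29A and chr2:16846195-16846444 on the minus strand for PYL6. No other annotated gene reaches into these windows.
RD29B: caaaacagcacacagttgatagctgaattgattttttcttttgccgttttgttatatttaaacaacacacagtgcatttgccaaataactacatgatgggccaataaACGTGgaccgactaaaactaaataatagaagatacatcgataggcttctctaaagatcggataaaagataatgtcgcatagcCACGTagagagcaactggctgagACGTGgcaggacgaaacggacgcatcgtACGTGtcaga
LEA4-5: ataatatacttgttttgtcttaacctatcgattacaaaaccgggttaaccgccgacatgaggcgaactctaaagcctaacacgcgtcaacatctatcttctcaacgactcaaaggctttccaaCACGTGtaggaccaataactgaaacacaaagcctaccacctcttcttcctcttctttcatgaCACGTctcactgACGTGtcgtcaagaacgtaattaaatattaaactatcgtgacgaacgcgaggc
HAI2: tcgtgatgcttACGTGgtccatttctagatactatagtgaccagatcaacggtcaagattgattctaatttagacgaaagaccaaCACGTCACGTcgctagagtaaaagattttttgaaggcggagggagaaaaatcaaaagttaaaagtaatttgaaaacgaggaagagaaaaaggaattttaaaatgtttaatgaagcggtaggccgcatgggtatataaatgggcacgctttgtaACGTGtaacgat
RD29A: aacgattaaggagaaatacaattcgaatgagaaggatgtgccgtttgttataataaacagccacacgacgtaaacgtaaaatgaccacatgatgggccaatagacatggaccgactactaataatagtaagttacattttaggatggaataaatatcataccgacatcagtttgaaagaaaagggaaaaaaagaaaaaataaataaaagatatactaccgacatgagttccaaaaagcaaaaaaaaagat
PYL6: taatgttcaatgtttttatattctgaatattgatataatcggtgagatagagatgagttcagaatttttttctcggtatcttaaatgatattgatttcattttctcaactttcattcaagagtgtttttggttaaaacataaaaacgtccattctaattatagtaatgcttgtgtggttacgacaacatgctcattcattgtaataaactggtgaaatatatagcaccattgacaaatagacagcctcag
RD29B, LEA4-5 and HAI2 each hold 4 sites in this window. RD29A, which rose, and PYL6, which fell, hold none. A match is a description of the letters and not of binding, and an empty window says only that these letters are not in these 250 bases.

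ABA moved a large part of the transcriptome, in nearly equal numbers of genes up and down. Of 15853 loci tested with edgeR's quasi-likelihood test, 6052 (38.2%) passed a Benjamini-Hochberg adjusted p of 0.05, 3125 of them higher (19.7%) and 2927 lower (18.5%). At upper quartile scaling, which moved the median log2 fold change of all loci by -0.09, the split was 2562 higher and 3789 lower. The large changes leaned upward. Among called loci 1318 rose (8.31% of those tested) and 902 fell (5.69%) by at least 2-fold, 489 rose and 249 fell by at least 4-fold, and 113 rose and 42 fell by at least 16-fold. The median of the called rises was a log2 fold change of 0.84 and that of the called falls -0.73, so the typical called gene changed by less than 2-fold. Of the called loci, 3005 of the higher and 2794 of the lower had no overlap between the 3 ABA and the 3 mock libraries, where 48.9% of all tested loci had none. Leaving out any 1 of the 6 libraries gave 2704 to 3004 higher and 2387 to 2714 lower loci, and 2289 higher and 1800 lower calls were made in all 6 of those fits.

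The shift can also be given in reads. The 3125 loci called higher took 23.9% to 24.7% of the counted reads of the mock libraries and 36.7% to 37.7% of those of the ABA libraries. The 2927 loci called lower took 22.33% to 23.64% in mock and 13.1% to 14.0% in ABA. The calls chose these loci, so the shares describe the size of the shift and test nothing. CPM is a share of all counted reads, and in whole seedlings fewer cells of a type and less of a transcript per cell cannot be told apart.

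Called loci lay on all 5 chromosomes in like shares, from 18.15% to 20.66% higher and from 17.61% to 19.86% lower. The share called grew with the level. When loci were cut into 4 equal groups by average level, it went from 11.5% in the lowest to 30.2% in the highest group for rises and from 15.4% to 21.5% for falls. Loci with several transcript models, of which only reads that fit 1 model were counted, had 13.0% called higher and 9.89% lower, against 20.9% and 20.0% of loci with 1 model.

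**Figure D1:**
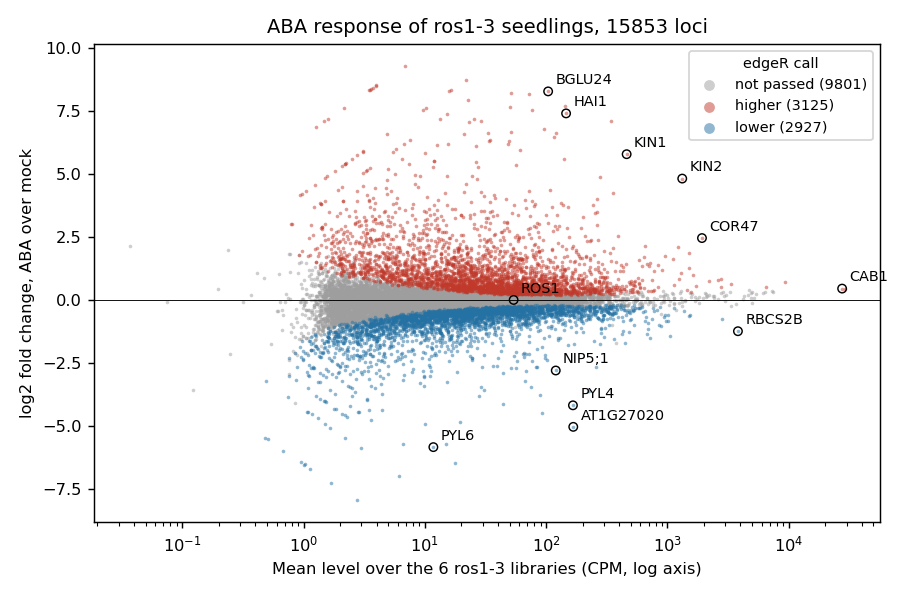
Each point is 1 of the 15853 tested loci, with its mean level over the 6 ros1-3 libraries in CPM on a log axis and its log2 fold change of ABA over mock; red loci were called higher (3125), blue loci lower (2927) and grey loci did not pass. The rises reach further from 0 than the falls, KIN2 and COR47 combine a high level with a large rise, and ROS1 lies on the line of no change.

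The largest rises were of genes that were silent or nearly silent in mock, and several of them encode LEA or membrane proteins. RD29B (annotated as LTI65, chr5:21237021-21239531 on the plus strand), a widely used ABA reporter gene, had 0, 0 and 0 CPM in mock and 5.85, 8.41 and 6.84 CPM in ABA. All of its reads were in the ABA libraries, and its rise was at least 29.0-fold, a bound set by 3 counts over the mock group. With no read in mock either, the rise was at least 56.8-fold for GASA3, of a family of small gibberellin-regulated peptides, at least 32.5-fold for the late embryogenesis abundant (LEA) protein AT3G15670, at least 30.6-fold for the LEA protein AT2G42560 and at least 29.7-fold for the membrane protein AT1G04560 of the AWPM-19 family. It was at least 28.7-fold for the transcription factor MYB121 and at least 33.1-fold for AT5G53710, a protein with no described role. With 1 read in mock, the ratio of ABA to mock was 538 (counting interval 96.1 to 21280) for TSPO, a membrane protein, 405 (counting interval 72.3 to 16020) for the mannose-binding lectin AT5G28520 and 394 (counting interval 70.4 to 15620) for CSLG2, of the cellulose synthase-like family. Bounds and intervals cover counting error only. Of the called rises 11 loci had no count in mock, and of the called falls 9 had none in ABA.

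BGLU24, a beta-glucosidase, showed the same pattern at a higher level. It had 0.420, 0.252 and 1.39 CPM in mock and 158, 225 and 238 CPM in ABA. Each ABA library lay far above each mock library, where no overlap was a condition of the selection (log2 8.27, SE 0.30, edgeR adjusted p = 1.61e-15). LTP4, a lipid transfer protein of the epidermis, had 0.630, 0.252 and 0 CPM in mock and 88.9, 96.3 and 124 CPM in ABA. Its groups were as clearly apart, under the same condition (log2 8.22, SE 0.39, edgeR adjusted p = 2.16e-13).

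The largest falls, taken under the same conditions, included receptor-like kinases, a wall protein and the ABA receptor PYL6, described below. CRK30, a cysteine-rich receptor-like kinase, had 4.62, 6.80 and 5.02 CPM in mock and 0, 0 and 0 CPM in ABA, a fall of at least 23.8-fold. AT2G28780, annotated as a subunit of an efflux pump, had a ratio of mock to ABA of 162 (counting interval 28.7 to 6450). The ratio was 74.7 (counting interval 13.0 to 2993) for DIR5, a dirigent-like protein, 57.6 (counting interval 9.91 to 2318) for the leucine-rich repeat kinase AT1G05700, 57.3 (counting interval 19.2 to 281) for the bHLH protein AT2G43140 and 29.2 (counting interval 9.64 to 144) for AT3G21080, similar to ABC transporters. In all of these the 3 ABA libraries lay below the 3 mock libraries, which was a condition of their selection. AT1G27020, a protein with no described role, was the fall with the most reads behind it among these. It had 251, 357 and 367 CPM in mock and 9.74, 7.75 and 12.1 CPM in ABA (log2 -5.04, SE 0.22, edgeR adjusted p = 6.67e-14). The TRAF-like protein AT3G20380 fell (log2 -6.45, SE 0.41), the extensin-like wall protein AT1G26240 (log2 -5.73, SE 0.63), and the acyltransferases AACT1, annotated as acting on anthocyanins, and AT4G15390 (log2 -4.93, SE 0.40, and log2 -4.83, SE 0.58, in that order).

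In absolute reads other genes led. The antenna genes CAB1 and LHB1B2 gained most CPM, at small fold changes of 0.45 and 0.42 on the log2 scale, followed by LHB1B1, the cold-regulated dehydrin COR47 and the stress protein KIN2. The LHB1B2 call was lost at upper quartile scaling (log2 0.33) and without mock replicate 1 (0.42) or 3 (0.38) or ABA replicate 1 (0.36) or 2 (0.39). Antenna genes have near-identical copies that share reads, so their single values are uncertain. Among the largest losses were those of the Rubisco small subunit genes RBCS2B and RBCS1B, the lipid transfer-like protein AT2G45180 and the germin GER3.

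The receptors and their phosphatase partners moved in opposite directions. Of 8 tested ABA receptor genes 6 fell, 1 rose and 1 did not pass, with a median log2 fold change of -2.18 where that of all tested loci was -0.02. PYL4 had 311, 307 and 328 CPM in mock and 20.2, 13.3 and 18.8 CPM in ABA. The ABA libraries held a small fraction of the mock level, with no overlap (log2 -4.18, SE 0.14, edgeR adjusted p = 5.73e-16). PYL6 had 18.7, 25.7 and 25.1 CPM in mock and 0.244, 0.443 and 0.442 CPM in ABA, the largest fall of the family (log2 -5.84, SE 0.47, edgeR adjusted p = 1.67e-09). PYL5 fell (log2 -2.83, SE 0.17), PYL2 (log2 -2.56, SE 0.60), PYR1 (log2 -1.80, SE 0.10) and PYL1 (log2 -1.04, SE 0.12). PYL7 was the receptor that rose, from 10.9 to 14.9 CPM in mock to 22.4 to 24.6 CPM in ABA (log2 0.80, SE 0.14, edgeR adjusted p = 0.000111). PYL9 had 16.2, 14.1 and 10.04 CPM in mock and 12.9, 15.7 and 14.3 CPM in ABA, and its groups overlapped. A further 6 of the 14 listed receptor genes had too few counts to be tested. Reads that fit several transcript models of a gene were not counted, so these 6 need not be silent. The 8 tested genes may not stand for the whole family.

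All 8 tested clade A PP2C genes rose, with a median log2 fold change of 4.15. HAI1, HAI2 and HAI3, named as highly ABA-induced phosphatases, were near 0 in mock. HAI1 had 1.89, 1.76 and 1.39 CPM in mock and 297, 312 and 262 CPM in ABA and HAI2 0.420, 0.252 and 0.836 CPM in mock and 99.4, 109 and 95.2 CPM in ABA. Both were far above the mock range in each ABA library (log2 7.40, SE 0.20, and 7.63, SE 0.21, edgeR adjusted p = 2.19e-17 and 3.58e-17). HAI3 had 2 counts in mock and a ratio of 279 (counting interval 77.0 to 2311). ABI2 had 0.840, 0.504 and 0 CPM in mock and 11.2, 11.7 and 7.29 CPM in ABA (log2 4.31, SE 0.42). PP2CA, which also acts on anion channels of guard cells, had 26.9, 35.2 and 31.2 CPM in mock and 479.9, 537 and 462 CPM in ABA (log2 3.99, SE 0.13). ABI1, a phosphatase known from ABA-insensitive mutants, had 109, 112 and 122 CPM in mock and 655, 676 and 654 CPM in ABA. Its libraries within a group differed by little beside the rise (log2 2.54, SE 0.08, edgeR adjusted p = 5.73e-16). All calls of the receptor and phosphatase lists were made again with each library left out in turn.

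Among the kinases and factors downstream the changes were smaller. Of 7 tested SnRK2 genes 4 rose, 1 fell and 2 did not pass (median log2 0.45). SNRK2.9 rose (log2 1.08, SE 0.12) and OST1, the main SnRK2 of guard cells (log2 1.07, SE 0.25). SNRK2.3, one of the ABA-activated kinases, had 121, 129.9 and 129 CPM in mock and 121, 124 and 124 CPM in ABA, with overlapping groups. With each library left out in turn 3 of the 4 rises were called every time, and the fall was lost without mock replicate 1 or ABA replicate 2, which each left 0. Of 7 tested bZIP factors 5 rose and 2 did not pass (median 1.56). GBF3, a G-box binding factor, had 1.89, 2.52 and 2.23 CPM in mock and 16.1, 16.8 and 19.6 CPM in ABA. It was clearly higher in every ABA library (log2 2.99, SE 0.25, edgeR adjusted p = 3.31e-09). ABI5, which holds back seedling growth under ABA, rose (log2 1.83, SE 0.22) and ABF3 (log2 2.94, SE 0.49). Without mock replicate 1 the list had 3 rises. AREB3 (log2 0.21) did not pass. ABI3 had 0 counts in mock and 2 in ABA, and ABI4 had none.

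**Figure D2:**
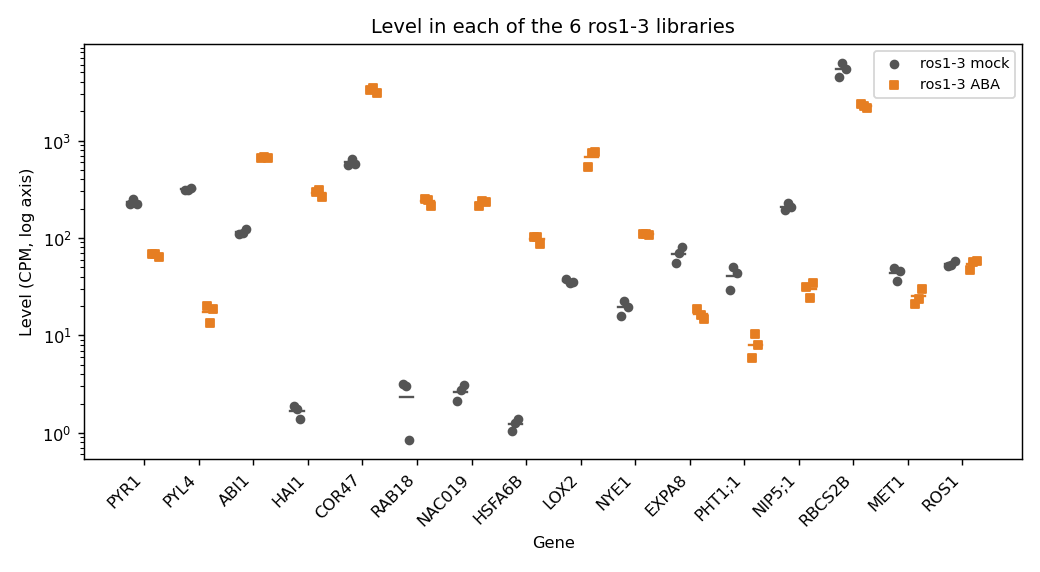
Points are the levels in the 3 mock (grey circles) and 3 ABA (orange squares) ros1-3 libraries of 16 genes in CPM on a log axis, with bars at the group means. PYR1, PYL4, EXPA8, PHT1;1, NIP5;1, RBCS2B and MET1 lie lower in ABA, the genes from ABI1 to NYE1 higher, all without overlap, and the 2 groups of ROS1 overlap.

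Genes that make, break down and move ABA changed as well. Of 7 tested genes of ABA synthesis 5 rose and 2 did not pass (median log2 1.61). NCED3, the carotenoid-cleaving enzyme that limits drought-induced synthesis, had 3.99, 5.54 and 3.07 CPM in mock and 16.8, 19.9 and 15.2 CPM in ABA. Its ABA libraries were all above its mock libraries (log2 2.03, SE 0.27, edgeR adjusted p = 3.52e-06). NCED2 rose (log2 3.69, SE 0.43), AAO3, the oxidase of the last step (log2 1.68, SE 0.24) and ABA1, zeaxanthin epoxidase (log2 1.61, SE 0.13). ABA2 was at log2 -0.29 and did not pass. Of 4 tested genes of breakdown and conjugation, the hydroxylase CYP707A4 had 2 counts in mock and a ratio of ABA to mock of 82.4 (counting interval 22.5 to 686). The glucosyltransferase UGT71B6 rose (log2 1.37, SE 0.35), while UGT71C5, another ABA glucosyltransferase, fell from 54.0, 59.7 and 61.9 CPM to 34.6, 28.3 and 32.7 CPM (log2 -0.88, SE 0.11, edgeR adjusted p = 8.52e-07). The hydroxylases CYP707A1, CYP707A2 and CYP707A3 had 0 to 3 counts per group and were not tested. Reads that fit several transcript models of a gene were not counted, so few counts need not mean a silent gene.

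Of 6 tested ABA transporters 4 rose, 1 fell and 1 did not pass (median 1.49). ABCG25, an exporter, had 17.0, 18.9 and 20.1 CPM in mock and 71.1, 73.7 and 71.5 CPM in ABA (log2 1.96, SE 0.14, edgeR adjusted p = 1.37e-10). DTX50, another exporter, rose (log2 2.45, SE 0.36), and the importers ABCG40 and ABCG30 (log2 1.96, SE 0.53, and log2 1.01, SE 0.23, in that order). NRT1.2, a nitrate transporter that also imports ABA, fell (log2 -0.79, SE 0.08), and without mock replicate 1 there were 2 falls. No call of the synthesis, breakdown and transport lists was lost with each library left out in turn.

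Most listed genes for protective proteins rose. The list was chosen with earlier results of these data known and leaves out other LEA genes named above. Of 21 tested genes for LEA proteins, dehydrins and cold-regulated proteins 19 rose and 2 did not pass, with a median log2 fold change of 4.17, and all 19 calls were made again with each library left out in turn. LEA4-5, whose upstream sequence with 4 sites is shown above, had 1.68, 1.76 and 1.67 CPM in mock and 179, 214 and 173 CPM in ABA. The mock libraries were all below 2 CPM (log2 6.77, SE 0.24, edgeR adjusted p = 1.43e-15). AT3G17520, an LEA protein, had 0.210, 1.01 and 0.279 CPM in mock and 135, 159 and 140.4 CPM in ABA (log2 8.15, SE 0.38). EM6, a protein of mature embryos, had 1 count in mock and a ratio of 251 (counting interval 44.7 to 9954). RD29A, the neighbour of RD29B on chromosome 5 and without a site in its window, had 15.8, 18.9 and 20.9 CPM in mock and 582, 437 and 589 CPM in ABA. It had a clear mock level, unlike RD29B, and still rose in every library (log2 4.87, SE 0.20, edgeR adjusted p = 2.04e-14). COR47, already well read in mock, had 555, 653 and 579.5 CPM in mock and 3271, 3433 and 3081 CPM in ABA (log2 2.45, SE 0.12, edgeR adjusted p = 5.75e-13), and KIN2 had 79.6, 90.7 and 104 CPM in mock and 2843, 2301 and 2536 CPM in ABA (log2 4.81, SE 0.24). The 2 members that did not pass were the dehydrin HIRD11 (log2 0.18), which had at least 1954 CPM in all 6 libraries, and UNE15 (0.55).

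Seed genes proper stayed at a few reads. Of 7 genes for storage and oil body proteins only RD20, a caleosin of oil bodies that is also made in dehydrated leaves, had enough reads for the test. It had 1.26, 1.76 and 1.11 CPM in mock and 239, 348 and 276 CPM in ABA (log2 7.68, SE 0.29, edgeR adjusted p = 4.05e-15). The oleosin gene OLEO2 had 1 count in mock and 9 in ABA and OLEO1 had 0 and 2. The storage protein genes CRA1 and CRU3 had none, SESA1 had 3 and 5 and the peroxiredoxin gene PER1 3 and 6.

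Transcription factors of the drought response rose in 23 of 26 tested cases, 1 fell and 2 did not pass (median log2 2.15). The 3 largest rises were of MYB and NAC factors. NAC019 had 2.1, 2.77 and 3.07 CPM in mock and 215, 237 and 232 CPM in ABA. Its mock libraries were all under 4 CPM (log2 6.44, SE 0.22, edgeR adjusted p = 6.23e-16). MYB102 had 0, 1.01 and 0.279 CPM in mock and 46.3, 72.4 and 54.3 CPM in ABA (log2 7.08, SE 0.49), MYB2 rose (log2 5.51, SE 0.43), MYB74 (log2 4.93, SE 0.32) and MYB41, an activator of suberin genes (log2 4.19, SE 0.39). The factor that fell was HB5 (log2 -0.60, SE 0.14), a homeodomain protein. Of the WRKY factors WRKY18 (log2 -1.08) and WRKY60 (-0.48) did not pass. WRKY18 was called lower with the ros1-3 libraries alone (edgeR adjusted p = 0.0273) and with the replicate block (0.0329). At upper quartile scaling 3 members were called lower in place of 1, and of the 23 rises 22 were made again with each library left out in turn.

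Genes for sugars and amino acids that protect cells moved in part. Of 11 tested genes of osmolyte and starch metabolism 6 rose, 2 fell and 3 did not pass (median 0.94). GOLS2, galactinol synthase of the raffinose path, had 3 counts in mock and a ratio of 52.5 (counting interval 17.65 to 257), and GOLS4 rose (log2 4.43, SE 0.55). SUS3, a sucrose synthase, had 5.88, 7.30 and 5.58 CPM in mock and 55.0, 64.2 and 61.1 CPM in ABA (log2 3.26, SE 0.20, edgeR adjusted p = 2.23e-11). BAM1, a beta-amylase that breaks down starch under stress, had 68.5, 83.1 and 73.3 CPM in mock and 377, 396 and 371 CPM in ABA (log2 2.35, SE 0.10, edgeR adjusted p = 5.86e-14). ERD5, the proline dehydrogenase that breaks proline down, fell (log2 -0.60, SE 0.14). Without mock replicate 2 or 3 or ABA replicate 1 or 3 the list held 1 fall. P5CS1, the stress-induced isoform, has several transcript models and had 1 count in each group.

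Most tested genes of the cuticle rose. Of 10 tested genes of cuticular wax 9 rose and 1 did not pass (median log2 0.88), and every call was made again with each library left out in turn. KCS2, an elongase of very long fatty acids, had 13.9, 13.8 and 21.5 CPM in mock and 199, 211 and 211 CPM in ABA. All ABA libraries were far above the mock range (log2 3.68, SE 0.13, edgeR adjusted p = 8.48e-16). KCS1 rose (log2 2.02, SE 0.20), the lipid transfer protein LTPG1 (log2 0.91, SE 0.13) and the exporter ABCG11 (log2 0.90, SE 0.10). WSD1, a wax ester synthase, had 2 counts in mock and a ratio of 15.9 (counting interval 4.08 to 137). CUT1, the main elongase of stem wax, was at log2 0.65 and did not pass, though it was called without ABA replicate 3 (0.85) or mock replicate 2 (0.92).

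The root barrier moved in both directions. Of 12 tested genes of the Casparian strip and of suberin 7 rose, 3 fell and 2 did not pass (median 1.11), with 6 higher and 5 lower at upper quartile scaling. GPAT5, an acyltransferase of suberin, had 4.41, 5.04 and 5.58 CPM in mock and 25.8, 33.0 and 22.3 CPM in ABA (log2 2.44, SE 0.21, edgeR adjusted p = 5.68e-09). The hydroxylase CYP86B1 rose (log2 2.42, SE 0.25) and the reductases FAR1 and FAR5 (log2 2.38, SE 0.20, and log2 1.70, SE 0.31, in that order). On the side of the Casparian strip, PER64, a peroxidase of its lignin, had 11.6, 18.4 and 11.7 CPM in mock and 4.38, 4.65 and 3.75 CPM in ABA and fell (log2 -1.70, SE 0.31, edgeR adjusted p = 0.000135). CASP1, a scaffold protein of the strip, fell (log2 -1.45, SE 0.27), while CASP2 was at log2 -0.82 and did not pass except with ros1-3 libraries alone, upper quartile scaling, no filter or without mock replicate 1 (-1.04).

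Channels and pumps of guard cells and roots moved in both directions: of 15 tested genes 4 rose, 6 fell and 5 did not pass (median log2 -0.05). GORK, the potassium channel that lets guard cells close, had 9.87, 9.82 and 8.64 CPM in mock and 36.8, 36.5 and 31.1 CPM in ABA. It rose in every library (log2 1.87, SE 0.15, edgeR adjusted p = 2.13e-09), as did ALMT12, a malate channel of guard cells (log2 1.52, SE 0.19). SLAC1, the anion channel that ABA signalling opens, had 8.61, 12.1 and 10.04 CPM in mock and 10.5, 11.7 and 15.0 CPM in ABA, with overlapping groups, and the proton pump gene HA1 was at log2 0.14. HAK5, the high-affinity potassium transporter of roots, had 42.6, 65.0 and 49.6 CPM in mock and 2.92, 2.21 and 5.96 CPM in ABA. Its ABA libraries kept under 6 CPM (log2 -3.80, SE 0.33, edgeR adjusted p = 5.76e-09). SLAH1, a root anion channel, had 3 counts in ABA and a ratio of mock to ABA of 23.5 (counting interval 7.69 to 117), and SLAH2 fell (log2 -2.48, SE 0.58).

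Most tested genes for the breakdown of chlorophyll rose, while most tested genes of the photosystems did not pass. Of 11 tested genes of chlorophyll breakdown and senescence 9 rose, 1 fell and 1 did not pass (median log2 1.68). NYE1, also called SGR1, which starts chlorophyll breakdown, had 16.0, 22.7 and 19.5 CPM in mock and 111, 111 and 107 CPM in ABA (log2 2.51, SE 0.14, edgeR adjusted p = 4.07e-12). NYE2, its close relative, had 1.05, 2.52 and 2.79 CPM in mock and 39.5, 38.1 and 43.5 CPM in ABA (log2 4.29, SE 0.28). The pheophytinase PPH rose (log2 2.12, SE 0.43) and the chlorophyll b reductase NYC1 (log2 1.86, SE 0.25). SAG29, a senescence gene that encodes the sugar transporter SWEET15, had 2.31, 4.03 and 1.67 CPM in mock and 96.2, 115 and 122 CPM in ABA (log2 5.36, SE 0.20, edgeR adjusted p = 1.91e-15). SEN1 was the member that fell (log2 -0.80, SE 0.16), and ASN1, an asparagine synthetase, did not pass (log2 0.34) except with the replicate block (edgeR adjusted p = 0.0336), the covariate or no filter, or without ABA replicate 3 (log2 0.47) or mock replicate 1 (0.455). Each of these calls was made again with each library left out in turn.

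Of 24 tested genes of the photosystems, antennae and Rubisco 4 rose, 2 fell and 18 did not pass (median 0.26), with 7 rises without ABA replicate 3. The list had 16.7% called higher and 8.33% called lower, where 19.7% and 18.5% of all tested loci were. Neither share was above that of all tested loci, most of which did not pass either. LHCB2.1, of the antenna, had 1158, 1099 and 1062 CPM in mock and 2349, 2182 and 1987 CPM in ABA (log2 0.97, SE 0.19, edgeR adjusted p = 0.000309). CAB2 rose (log2 0.79, SE 0.20) and LHCB2.2 (log2 0.74, SE 0.18). The falls were of Rubisco small subunits, with RBCS2B at 4469, 6261 and 5364 CPM in mock and 2388, 2237 and 2178 CPM in ABA. All 3 ABA libraries were below all mock libraries (log2 -1.24, SE 0.14, edgeR adjusted p = 2.31e-07). RBCS1B fell (log2 -1.53, SE 0.14), while RBCS1A (log2 -0.15), a further copy, and the oxygen-evolving protein PSBO1 (0.32) did not pass, though PSBO1 was called with ros1-3 libraries alone and without ABA replicate 3 (0.40) or mock replicate 2 (0.39). Members of these families share near-identical stretches, and reads that align to several places were not counted, so the split between copies is uncertain.

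Most tested genes for expansins, proteins that loosen the cell wall, fell. Of 14 tested expansins 10 fell, 1 rose and 3 did not pass, with a median log2 fold change of -1.35. EXPA8 had 55.0, 70.5 and 80.8 CPM in mock and 18.8, 16.4 and 14.8 CPM in ABA. Each ABA library was below 20 CPM and each mock library above 50 (log2 -2.04, SE 0.24, edgeR adjusted p = 5.41e-07). EXPA15 had 11.3, 15.4 and 13.4 CPM in mock and 4.14, 2.44 and 2.43 CPM in ABA (log2 -2.15, SE 0.28). EXPA9 fell (log2 -1.50, SE 0.18) and EXPA14 (log2 -1.49, SE 0.41). EXPA11 (log2 0.46) and EXPB3 (-0.76) did not pass, though EXPA11 was called without ABA replicate 2 (0.59) or mock replicate 2 (0.62) and with ros1-3 libraries alone. The rise was of EXPA4 (log2 0.53), and it was lost without ABA replicate 1 (log2 0.475) or mock replicate 2 (0.44), while 2 rises were called without ABA replicate 2. With each library left out in turn 7 of the 10 falls were called every time.

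Another family that remodels the wall, the xyloglucan endotransglucosylases, went both ways, with 6 of 14 tested genes higher, 4 lower and 4 not passing (median 0.01). XTH15 had 582, 447 and 363 CPM in mock and 2012, 2231 and 1690 CPM in ABA and rose (log2 2.09, SE 0.22, edgeR adjusted p = 1.38e-07). XTH18 rose (log2 1.13, SE 0.22) and XTH19 (log2 0.94, SE 0.20), whereas XTH33 fell (log2 -1.38, SE 0.33) and XTH20 (log2 -1.86, SE 0.51). XTH5 (log2 -0.15) and XTH17 (-0.49) did not pass.

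Most tested markers of root epidermis and uptake fell, and so did 6 of 12 tested genes in a list of uptake genes. Of 12 tested markers of root epidermis and uptake 8 fell and 4 did not pass (median log2 -1.49). PHT1;1 had 29.4, 49.9 and 43.2 CPM in mock and 5.85, 10.4 and 7.95 CPM in ABA. The groups did not overlap (log2 -2.31, SE 0.24, edgeR adjusted p = 7.94e-08). NRT2.1, the high-affinity nitrate transporter, had 13.2, 24.7 and 23.4 CPM in mock and 3.65, 3.76 and 5.74 CPM in ABA (log2 -2.19, SE 0.39, edgeR adjusted p = 0.000112). LRX1, a wall protein of root hairs, fell (log2 -1.47, SE 0.28). RHD6, a root hair factor, was at log2 -0.43 and did not pass. A list of 12 genes for nitrate, ammonium, phosphate and sulfate uptake, which shares PHT1;1, NRT2.1 and PHO1 with these markers, had 6 falls and 6 that did not pass (median -1.01). PHT1;4, another phosphate transporter, fell (log2 -2.07, SE 0.20), the ammonium transporter AMT1;3 (log2 -1.56, SE 0.37) and PHO1, which loads phosphate into the xylem (log2 -1.24, SE 0.19). Nitrate reductase NIA1, which the uptake list also holds, was at log2 0.56 and did not pass in the fit of all 18 libraries. It passed with the 6 ros1-3 libraries alone (edgeR adjusted p = 0.000451). All 6 falls of the uptake list and 5 of the 8 of the marker list were called with each library left out in turn.

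Water and sugar channels changed gene by gene. The share called was 36.8% for aquaporins, near the 38.2% of all tested loci, and 77.8% for SWEET transporters. Of 19 tested aquaporins 6 rose, 1 fell and 12 did not pass (median log2 0.27). The fall was of NIP5;1, which takes up boric acid. It had 192, 229 and 209 CPM in mock and 31.4, 24.4 and 34.7 CPM in ABA. Every ABA library lay below 35 CPM, at a fraction of the mock level (log2 -2.80, SE 0.14, edgeR adjusted p = 3.9e-13). PIP2A rose (log2 1.52, SE 0.37), PIP2;5 (log2 0.93, SE 0.19) and PIP2E (log2 0.64, SE 0.12), while the tonoplast aquaporins TIP2 (log2 0.27) and DELTA-TIP (0.11) did not pass, though TIP2 was called without ABA replicate 3 or mock replicate 2 (both 0.35). Of 9 tested SWEET sugar transporters 5 rose, 2 fell and 2 did not pass (median 0.39). SWEET13 had 0.840, 0.252 and 0.836 CPM in mock and 7.06, 5.54 and 7.51 CPM in ABA (log2 3.32, SE 0.42) and SWEET4 rose (log2 3.29, SE 0.41). SWEET11, which exports sucrose for phloem loading, had 496, 739 and 579 CPM in mock and 249, 216 and 247 CPM in ABA and fell (log2 -1.35, SE 0.15, edgeR adjusted p = 3.14e-07).

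The share called among genes of cell division was 26.1%, all of it falls, where 38.2% of all tested loci were called and 18.5% called lower. Of 23 tested genes of the cell cycle and DNA replication 6 fell and 17 did not pass (median log2 -0.20), but the count of falls was 1 without ABA replicate 2 or mock replicate 1 and 2 without mock replicate 3. PCNA1, the sliding clamp of replication, was the 1 fall called every time. PCNA1 had 17.43, 16.4 and 22.0 CPM in mock and 9.74, 7.97 and 10.4 CPM in ABA. The groups did not overlap (log2 -0.98, SE 0.20, edgeR adjusted p = 0.000558). In the stomatal lineage 16.7% of tested genes were called, all lower, near the 18.5% of all tested loci called lower. Of its 12 tested genes SPCH, its first factor (-0.63), and EPF2, a signal that limits stomata (-1.14), fell and 10 did not pass. EPF2 had 3.99, 4.03 and 5.30 CPM in mock and 2.19, 2.66 and 1.104 CPM in ABA, without overlap (log2 -1.14, SE 0.36, edgeR adjusted p = 0.0161). The call was lost without ABA replicate 3 (log2 -0.85) or mock replicate 3 (-1.005). That of SPCH was lost without ABA replicate 1 (-0.62) or 3 (-0.40) or mock replicate 1 (-0.54) or 3 (-0.55), so that without either replicate 3 the list held 0 falls, and without mock replicate 1 it held 1 rise.

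Most tested genes of another hormone, jasmonate, rose. Of 16 tested genes of jasmonate synthesis and response 14 rose and 2 did not pass (median log2 1.34). LOX2, a lipoxygenase of the chloroplast that begins jasmonate synthesis, had 37.8, 34.5 and 35.7 CPM in mock and 535, 745 and 765 CPM in ABA. The ABA libraries were all above 500 CPM (log2 4.24, SE 0.33, edgeR adjusted p = 6.96e-10). LOX3 rose (log2 1.96, SE 0.25), LOX4 (log2 1.78, SE 0.38), the cyclase gene AOC2 (log2 1.69, SE 0.23) and JAZ7, a repressor of the pathway (log2 1.70, SE 0.32). The receptor COI1 was at log2 -0.04 and did not pass, and 13 of the 14 rises were called with each library left out in turn.

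In the other hormone lists the share called lay closer to the 38.2% of all tested loci. It was 36.8% for auxin, 46.7% for ethylene and 38.5% for gibberellin. Of 19 tested auxin genes 1 rose, 6 fell and 12 did not pass (median -0.26). GH3.5, which conjugates auxin to amino acids, had 64.0, 37.5 and 36.2 CPM in mock and 259, 265 and 271 CPM in ABA (log2 2.51, SE 0.21, edgeR adjusted p = 4.13e-09). The influx carrier LAX3 fell (log2 -1.56, SE 0.20), and 3 of the 6 falls were called with each library left out in turn. Of 15 tested ethylene genes 4 rose, 3 fell and 8 did not pass (median 0.04). ACS7, of ethylene synthesis, rose (log2 2.27, SE 0.33) and so did the receptor ERS2 (log2 1.38, SE 0.15). Of 13 tested gibberellin genes 4 rose, 1 fell and 8 did not pass (median 0.13), and of 2 enzymes that inactivate gibberellin GA2OX6 rose (log2 1.70, SE 0.22) and GA2OX2 fell (log2 -1.37, SE 0.35). Without mock replicate 2 the ethylene list had 1 fall, and without ABA replicate 3 or mock replicate 1 the gibberellin list had 1 rise.

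A further 3 hormone lists held no call that was made with each library left out in turn. Among 9 brassinosteroid genes 2 rose and 2 fell (median 0.07), with 1 rise without ABA replicate 1 or 2 and 1 fall without ABA replicate 3 or mock replicate 2. Among 5 type-A cytokinin response regulators 2 rose (median 0.04), with 0 without mock replicate 3, 1 without mock replicate 2 or any 1 ABA replicate, and 1 fall without ABA replicate 2. The share called was 44.44% in the brassinosteroid list. That of the regulators lay between this and the 38.2% of all tested loci. In the list of salicylic acid and immune genes 18.75% were called higher and 6.25% lower. Neither was above the 19.7% and 18.5% of all tested loci. Among the 16 tested salicylic acid and immune genes 3 rose and 1 fell (median -0.05). There 0 rises were left without ABA replicate 2 and 1 without ABA replicate 3 or mock replicate 1 or 3, while the falls numbered 2 without ABA replicate 3 and 0 without ABA replicate 2 or mock replicate 1 or 3. At upper quartile scaling the salicylic acid list had 0 higher and 4 lower, the gibberellin list 2 higher, the regulators 1 higher and the auxin list 8 lower.

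Most tested heat shock genes rose too. Of 10 tested chaperones and heat shock factors 9 rose and 1 fell (median log2 1.74), and all 10 calls were made again with each library left out in turn. HSFA6B, a heat shock factor, had 1.05, 1.26 and 1.39 CPM in mock and 103, 103 and 87.2 CPM in ABA. It went from about 1 CPM to over 87 CPM in each library (log2 6.30, SE 0.21, edgeR adjusted p = 6.23e-16). The chloroplast chaperone HSP21 rose (log2 3.22, SE 0.41), the mitochondrial HSP23.6-MITO (log2 2.54, SE 0.44), HSP17.6II (log2 2.33, SE 0.28) and HSP17.4 (log2 2.14, SE 0.28). HSFA3 was the one that fell (log2 -1.33, SE 0.21).

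In 3 further lists the share called was near the 38.2% of all tested loci, with 4 of 10 enzymes of reactive oxygen, 4 of 10 hypoxia genes and 33.3% of clock genes. Among the 8 tested genes for flavonoids and anthocyanin, 4 rose and the other 4 missed the threshold (median 0.85). PAP1, the MYB factor that turns on anthocyanin synthesis, had 3 counts in mock and a ratio of 39.7 (counting interval 13.3 to 195), its partner TT8 rose (log2 2.23, SE 0.40) and chalcone synthase, TT4, also rose (log2 1.09, SE 0.21). FLS1, flavonol synthase, was at log2 0.99 and did not pass. Of 10 tested enzymes that make or remove reactive oxygen, RBOHF, the oxidase of guard cell ABA signalling, rose (log2 1.14, SE 0.12) and CAT1, a catalase (log2 1.03, SE 0.11). RBOHD, the oxidase of defence, fell (log2 -0.93, SE 0.16) and CSD2, a superoxide dismutase (log2 -0.95, SE 0.22), and 6 did not pass (median -0.21). Upper quartile scaling gave 4 falls in this list. In the hypoxia list 2 of 10 tested genes rose, 2 fell and 6 missed the threshold (median 0.10). ADH1, alcohol dehydrogenase, had 15.5, 18.4 and 15.6 CPM in mock and 103, 75.1 and 119 CPM in ABA and rose (log2 2.59, SE 0.24, edgeR adjusted p = 1.55e-08), and it was the 1 call of that list made with each library left out in turn. The falls of that list numbered 0 without ABA replicate 2 or mock replicate 2 or 3 and 1 without ABA replicate 1 or 3. Of 9 tested clock genes 3 rose and 6 did not pass (median 0.13). ELF4, of the evening complex, had 44.5, 44.8 and 46.8 CPM in mock and 113, 108 and 108 CPM in ABA, the 1 rise that held with each library left out in turn and at upper quartile scaling (log2 1.27, SE 0.12, edgeR adjusted p = 1.63e-08). It was the 1 clock call without ABA replicate 1. TOC1, a core clock repressor, was at log2 0.13 and did not pass.

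Among genes for DNA methylation, the process ROS1 works against, 28.6% were called, all lower, where 38.2% of all tested loci were called and 18.5% called lower. Of 14 tested genes 4 fell and 10 did not pass (median log2 -0.34), and 2 of the falls were called with each library left out in turn. These were the maintenance methyltransferases. MET1, which copies CG methylation, had 48.9, 35.8 and 45.4 CPM in mock and 21.2, 23.9 and 30.2 CPM in ABA. The groups did not overlap (log2 -0.79, SE 0.16, edgeR adjusted p = 0.000468). CMT3, which methylates CHG sites, had 30.0, 25.7 and 28.1 CPM in mock and 12.4, 11.7 and 17.9 CPM in ABA, again without overlap (log2 -0.99, SE 0.18, edgeR adjusted p = 0.000144). The histone methyltransferase KYP (log2 -0.66) and the remodeller CLSY1 (-0.55) fell in the full comparison, and both calls were lost without ABA replicate 2 (KYP -0.60, CLSY1 -0.46) or mock replicate 3 (-0.53 and -0.44), which left 2 falls. KYP was also lost without ABA replicate 1 (-0.49) or mock replicate 1 (-0.62) and CLSY1 without ABA replicate 3 (-0.56) or mock replicate 2 (-0.54). DRM2, the methyltransferase directed by small RNAs, had 23.1, 18.4 and 20.6 CPM in mock and 19.7, 22.1 and 20.3 CPM in ABA, with overlapping groups. MET1 is known to be most active in dividing cells. The cell division list above had 6 falls of 23, and its part in the fall of MET1 was not tested. In active demethylation 16.7% of the 6 tested genes were called, all lower, near the 18.5% of all tested loci called lower. LIG1, a DNA ligase, fell (-0.42) and 5 did not pass (median -0.09). The call was lost, leaving 0, without ABA replicate 1 (-0.34) or 2 (-0.41) or mock replicate 1 (-0.305) or 3 (-0.36). DML2, the paralog of ROS1, had 14.3, 8.31 and 15.3 CPM in mock and 13.9, 14.4 and 11.7 CPM in ABA and IDM1, which acts with ROS1, was at log2 -0.02.

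Among genes of NAD synthesis and salvage 16.7% were called, all lower, where 38.2% of all tested loci were called and 18.5% called lower. Of the 6 tested AO, aspartate oxidase of the first step, fell (log2 -1.22, SE 0.28) and 5 did not pass (median -0.03). NIC3, a nicotinamidase, had 4.199, 5.04 and 5.30 CPM in mock and 7.06, 7.31 and 6.40 CPM in ABA. The ABA libraries were slightly above the mock libraries without overlap, but the difference did not pass (log2 0.53, SE 0.31, edgeR adjusted p = 0.195).

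Some of the named genes overlap a neighbour on the chromosome. Of the 190 named loci 31 share bases with another annotated gene, 15 of them more than 100 bases, and no strand setting of the count is given, so reads of such pairs cannot be told apart. The shared stretch was longest for UGT71B6 (1616 bases), followed by AAO3 (985), ABCG11 (596), PYL7 (571), HSFA3 (486) and XTH15 (382).

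**Figure D3:**
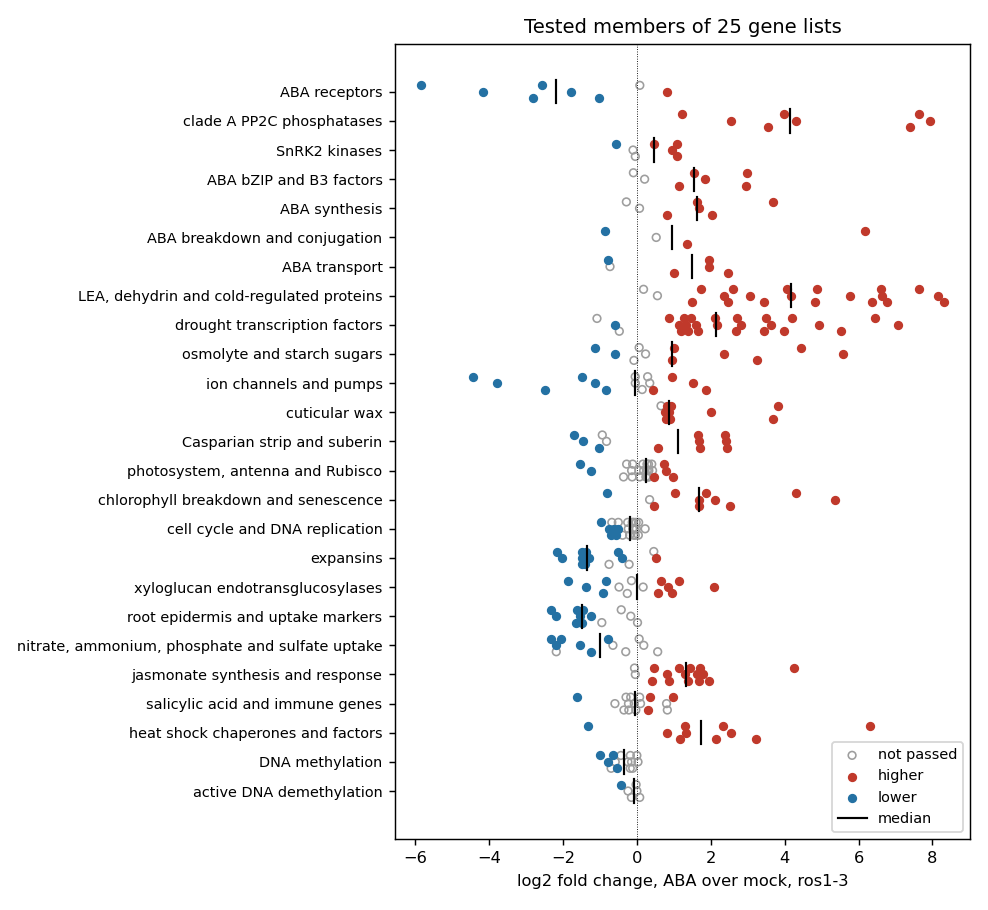
Each point is the log2 fold change of ABA over mock in ros1-3 of 1 tested gene in 25 of the 39 lists; filled red points were called higher, filled blue points lower, open points did not pass, and black bars are medians. Phosphatases, protective proteins, drought factors, wax, jasmonate and heat shock genes lie mostly to the right of 0, and receptors, expansins and root markers mostly to the left.

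The promoters of genes that rose held the ABA element's core more often than those of other genes. ACGTG on either strand was found in the 250 bases before the start of 21.7% of 31911 annotated loci and 24.0% of tested loci. It was found before 34.7% of the 3125 loci called higher (95% Wilson interval 33.0% to 36.3%), 21.9% of the 9790 loci not called (21.1% to 22.8%) and 19.6% of the 2926 loci called lower with a window (18.19% to 21.06%). These shares of loci carry no test, since genes are not independent replicates. The share rose with the size of the rise, from 30.6% of called rises under 2-fold and 36.2% between 2-fold and 4-fold to 47.2% at 4-fold or more. Among falls it was 18.6%, 20.4% and 25.3% in the same steps. The interval of the last step (20.3% to 31.05%) held the 24.0% of all tested loci. At least 2 sites were present before 17.8% of loci called higher, 8.66% of loci not called and 6.36% of loci called lower. The windows held 31.0% G and C in loci called higher, 31.6% in loci not called and 31.6% in loci called lower.

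Longer forms of the element gave the same order of loci called higher, not called and called lower. Their shares did not grow with the size of the fall. In the same steps of falls ACGTGTC was at 2.62%, 1.07% and 1.61% and ACGTGGC at 2.47%, 1.84% and 0.8%. ACGTGTC was found before 8.61% of loci called higher, 3.53% of loci not called and 2.19% of loci called lower. Its share was 3.39% of all annotated and 4.29% of all tested loci. ACGTGGC was found before 6.91%, 3.41% and 2.19%, against 3.02% of all annotated and 3.88% of all tested loci. By list, ACGTG was present before 15 of 21 tested LEA and dehydrin genes, 5 of 8 PP2C genes and 13 of 26 drought factors. It was present before 2 of 8 receptor genes and 4 of 14 expansins. In RD29B the sites began 143, 61, 38 and 10 bases before the start, in LEA4-5 127, 126, 65 and 53, and in HAI2 239, 165, 160 and 12.

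**Figure D4:**
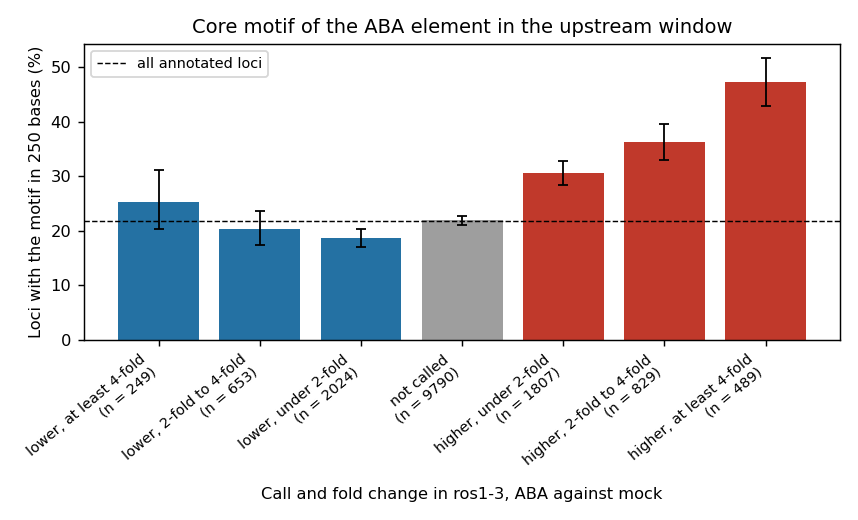
Bars are the percentage of loci with the core motif in the 250 bases before the gene start, by call and fold change in ros1-3, with 95% Wilson intervals that cover counting error only; the dashed line is the share of all annotated loci. The share is 47.2% in the loci that rose at least 4-fold and lies near the dashed line in loci not called. The dashed line includes untested loci, and the share of all tested loci was 24.0%.

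Whether ros1-3 responded differently from wild type was tested locus by locus as the difference of the 2 ABA responses in the fit of all 18 libraries. By edgeR 0 of 15853 loci passed (0.0%), 743 had an unadjusted p under 0.05 (383 with a higher and 360 with a lower response in ros1-3), and DESeq2 called 10. A share of about 0.05 of the 15853 loci would have an unadjusted p that low if none differed, and 743 is below that share. Without wild type ABA replicate 1 edgeR called 6, and leaving out the other libraries gave 0 to 3. The response of NIC3 had the smallest p. In wild type it went from 5.01, 7.19 and 2.69 CPM to 31.2, 36.1 and 32.8 CPM, and in ros1-3 from 4.199, 5.04 and 5.30 to 7.06, 7.31 and 6.40 CPM. In ros1-4 it went from 6.17, 4.85 and 8.41 CPM to 12.4, 8.16 and 13.3 CPM. Under ABA all libraries of both alleles were below all of wild type, so a low level was not particular to ros1-3. The response of ros1-3 was not called different from that of ros1-4 (log2 -0.28, SE 0.40). The difference of response between ros1-3 and wild type (log2 -2.35, edgeR adjusted p = 0.0746) did not pass. It passed with DESeq2 (adjusted p = 0.000475), and in edgeR with the replicate block (adjusted p = 0.0305), with the share of multiply aligned reads as a covariate (adjusted p = 0.0382), without the filter on low counts (adjusted p = 0.000609) and without wild type ABA replicate 1 (adjusted p = 0.0442) or mock replicate 2 (adjusted p = 0.00665). A p that misses the threshold does not show that the responses were alike. By list, medians in ros1-3 and wild type were 4.15 and 3.96 for the phosphatases, -2.18 and -1.61 for the receptors, 4.17 and 4.78 for the protective proteins, 2.15 and 1.97 for the drought factors and -1.35 and -1.26 for the expansins.

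Against ros1-4, the other allele of the same gene, 1 of 15853 loci passed (0.00631%). A further measure, an unadjusted p under 0.05, was met by 691 loci, again below a share of 0.05 of those tested. The locus that passed was ZW9 (AT1G58270, chr1:21611803-21614169 on the minus strand), which encodes a TRAF-like protein. In ros1-3 it had 14.7, 19.4 and 18.4 CPM in mock and 124, 137 and 111 CPM in ABA, and it rose (log2 2.83, SE 0.14, edgeR adjusted p = 2.03e-13). In ros1-4 it had 24.7, 24.2 and 23.0 CPM in mock and 74.6, 58.4 and 66.3 CPM in ABA (log2 1.47). The ros1-3 libraries were the lower ones in mock and the higher ones in ABA, with no overlap in either. The response of ros1-3 exceeded that of ros1-4 by a log2 of 1.36 (SE 0.19, edgeR adjusted p = 0.00557). Wild type stood above both alleles, with 81.3, 79.7 and 98.4 CPM in mock and 352, 331 and 289.7 CPM in ABA, and the difference between the ros1-3 and wild type responses (log2 0.93, edgeR adjusted p = 0.117) did not pass. It passed with DESeq2 (adjusted p = 0.00833), in edgeR without the filter on low counts (adjusted p = 0.00379), with the share of multiply aligned reads as a covariate (adjusted p = 0.0382) and without wild type ABA replicate 1 (adjusted p = 0.0447). Both differences use the same ros1-3 libraries.

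**Figure D5:**
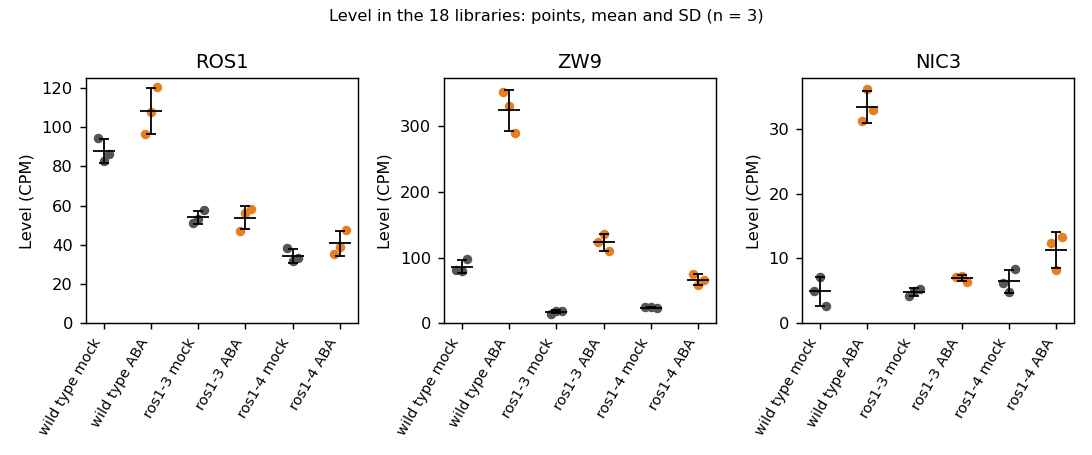
Points are the levels of ROS1, ZW9 and NIC3 in CPM in the 18 libraries, with the mean and SD of 3 libraries per group, mock in grey and ABA in orange. ROS1 is lower in both alleles than in wild type, and ZW9 rises in all 3 genotypes from the lowest mock level in ros1-3. NIC3 reaches over 31 CPM in wild type ABA, 6.40 to 7.31 CPM in ros1-3 ABA and 8.16 to 13.3 CPM in ros1-4 ABA.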

How the data were processed

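Messenger RNA of 18 libraries from whole seedlings was sequenced, and the authors deposited raw read counts per transcript model. Reads were trimmed, aligned and counted with tools that the submitters' processing notes list as HTSeq 0.6.1, TopHat2 2.0.8, Trim Galore 0.2.8 and SAMtools, and the genome was TAIR10. No source used here gives the strand setting.

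The 40466 model rows were summed to 32399 loci. The 5 summary rows without a gene, 38.5% to 41.6% of a ros1-3 file, stayed out of library sizes and tests. Reads that fit several models of a gene were left uncounted in the deposited tables, so the 5883 loci with several models keep only reads that fit 1 model.

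Each locus was tested with edgeR 4.0.16 in R 4.3.3 (TMM scaling, filterByExpr, quasi-likelihood F test, Benjamini-Hochberg adjustment at 0.05) in 1 model of 6 groups over all 18 libraries, with 12 residual degrees of freedom and 15853 loci tested. Scripts were tested on simulated data. DESeq2 1.42.0, other scalings, other filters, a replicate block and leaving out each library were tried. At 3 libraries a group, intervals and bounds for genes near 0 counts (exact, 95%) cover counting error only. Same-numbered mock and ABA libraries of ros1-3 did not deviate together (r from -0.01 to 0.03). In wild type same-numbered r ran from -0.07 to -0.05. In ros1-4 it ran from 0.04 to 0.24, and r of unlike numbers from -0.20 to 0.15. Such values cannot exclude that libraries were grown or treated in numbered sets, and the main fit has no pairing.

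The comparison, the 39 gene lists (582 of 589 entries matched) and the rule for named genes were chosen with earlier results of these data known. The rule names ROS1, the 12 largest called fold changes and the 5 largest called CPM changes per direction. The 12 were taken among loci with an average log2 CPM of at least 1 over the 18 libraries and no overlap of the groups. Per list the rule names up to 5 called members and up to 2 that did not pass, and it names called differences between genotypes. Named outside it, after their values were seen, are ABI1, PYL1, PYL7, RD29A, HB5, ERD5, SEN1, HSFA3, EXPA4, CASP1, LRX1 and untested genes named with counts. Gene positions and promoter sequences come from the RefSeq genome TAIR10.1. Results for 2 genes that the rule would name are not reported here.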

Additional observations from a re-analysis of the deposited data

Results flagged for a closer look

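ZW9 was the 1 locus whose ABA response differed between ros1-3 and ros1-4 by the test of the difference itself. The ros1-3 response exceeded the ros1-4 response by a log2 of 1.36 (edgeR adjusted p = 0.00557). All 3 ros1-3 ABA libraries lay above all 3 of ros1-4, and all 3 ros1-3 mock libraries below all 3 of ros1-4.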

How the results depend on the processing

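The count of 6052 called loci in ros1-3 stayed within 1.5 times under every alternative run except a test against a fold of 1.5, which called 1968 (1253 higher, 715 lower). No call made in both turned direction under other scalings, DESeq2, the replicate block or the covariate. Upper quartile scaling made 40.3% of calls higher, against 51.6% in the main comparison. Leaving out 1 library gave 5139 to 5718 calls.

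For the difference from wild type, with 0 calls, DESeq2 called 10 (7 higher, 3 lower), no filter 16 (11 and 5), a covariate for the share of multiply aligned reads 4 (3 and 1) and the replicate block 3 (2 and 1), and leaving out 1 library gave 0 to 6 (0 to 4 higher, 0 to 2 lower). For the difference from ros1-4, with 1 call, DESeq2 and no filter each called 7 (6 and 1), the covariate 2 (2 higher) and the replicate block 4 (4 higher), and leaving out 1 library gave 1 to 3 (1 to 2 higher, 0 to 1 lower). The cause of these shifts was not tested.

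The replicate block, which pairs libraries by number alone, gave 6009 calls for ros1-3 (5774 shared with the main comparison). Among the genes named it ended the call of SPCH (adjusted p = 0.0746) and made calls of WRKY18 (0.0329), ASN1 (0.0336) and the NIC3 difference from wild type (0.0305).

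Promoter shares in 200 bases were 31.36% for loci called higher, 16.95% for loci called lower and 19.01% for loci not called. ACGTGTC gave 8.61%, 2.19% and 3.53%, and ACGTGGC 6.91%, 2.19% and 3.41%.

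Genes named as not passed crossed 0 in some settings. ROS1 (main -0.002) was at 0.005 with DESeq2, 0.007 for loci with 1 model and with no filter, 0.006 with median-ratio scaling, 0.02 with the covariate and 0.0 with ros1-3 libraries only, and at -0.061 to 0.083 leaving out 1 library. DRM2 was at 0.004 with DESeq2, 0.006 for 1 model and with no filter, 0.005 with median-ratio scaling and 0.002 with the replicate block, over all or ros1-3 libraries, and at -0.082 to 0.097 leaving out 1. At upper quartile scaling PYL9 was at -0.015 and DML2 at -0.017. Leaving out 1 library, PYL9 lay at -0.076 to 0.248, DML2 at -0.149 to 0.222 and IDM1 at -0.099 to 0.078.

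The depth of 3304038 to 4647380 counted reads limits genes under about 1 CPM, where groups hold only a few reads.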
